A study of Mus musculus with 11 samples.

Results

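Collagens are the triple-helical proteins of the extracellular matrix, and the mouse genes that encode their chains were taken here as all protein-coding genes of the GENCODE annotation whose symbol has the form Col, number, a, number. This rule selected 44 of the 55359 genes in the count files. Their levels were read in vascular endothelial cells sorted from mouse retinas, and the levels after injection of oncostatin M (OSM, a cytokine of the interleukin-6 family) were compared with those after phosphate-buffered saline (PBS). The members are described by class: 6 chains of the type IV basement membrane network, 2 multiplexins, 11 fibrillar chains, 3 short-chain network collagens, 6 type VI chains, 9 fibril-associated collagens (FACIT), 4 transmembrane collagens and 3 others.

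All mice were C57BL/6 pups (C57BL/6J in the methods) in the oxygen-induced retinopathy (OIR) model. In this model exposure to high oxygen leaves retinal areas without vessels (vaso-obliteration), and the later hypoxic phase drives new, pathological vessels. At P12, 5 mice (mice 1, 2, 5, 6 and 9) received 0.5 µL of OSM at 100 ng/µL into the vitreous and 6 mice (mice 3, 4, 7, 8, 10 and 11) received 0.5 µL of PBS, and CD31+/CD45- cells were sorted at P17. The 3 litters, each used in a separate OIR run, held mice 1 to 4, mice 5 to 8, and mice 9 to 11, so that litter 3 had mouse 9 as its OSM-injected member. Retinas from both eyes of a mouse formed 1 sample, and since the study's methods give the contralateral eye PBS as the control without stating how the sequenced mice were injected, it cannot be told apart whether an OSM sample also held cells of a PBS-injected eye. No uninjected mice and no mice kept in room air were among these samples.

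Type IV collagen chains assemble into the sheet-like network of the vascular basement membrane, which lies between endothelial cells and pericytes and is made by both. The chains encoded by Col4a1 and Col4a2 form the common trimer of that network, and types XV and XVIII link basement membranes to the surrounding matrix. Fibrillar collagens such as types I, III and V form the fibers of connective tissue and are mostly made by fibroblasts and vascular mural cells (pericytes and smooth muscle cells). Proteins of the endoplasmic reticulum hydroxylate and fold each chain before secretion, and enzymes outside the cell then trim and cross-link it.

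Col4a1 and Col4a2 lie head to head on chromosome 8 and are known for a shared, bidirectional promoter. Their promoter windows are shown because the levels of both genes moved together across mice. The windows, from 250 bases before to 50 bases after each gene's start in RefSeq on build GRCm38.p6, are chr8:11312777-11313076 on the minus strand for Col4a1 and chr8:11312555-11312854 on the plus strand for Col4a2, each written 5′ to 3′ with CCAAT boxes and GC boxes (GGGCGG), on either strand, in capitals.
Col4a1: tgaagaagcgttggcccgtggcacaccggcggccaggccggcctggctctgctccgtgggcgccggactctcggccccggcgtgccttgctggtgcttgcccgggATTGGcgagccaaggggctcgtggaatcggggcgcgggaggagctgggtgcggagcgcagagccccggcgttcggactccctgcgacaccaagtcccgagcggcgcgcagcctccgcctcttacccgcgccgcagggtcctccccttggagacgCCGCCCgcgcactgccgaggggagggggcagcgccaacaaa
Col4a2: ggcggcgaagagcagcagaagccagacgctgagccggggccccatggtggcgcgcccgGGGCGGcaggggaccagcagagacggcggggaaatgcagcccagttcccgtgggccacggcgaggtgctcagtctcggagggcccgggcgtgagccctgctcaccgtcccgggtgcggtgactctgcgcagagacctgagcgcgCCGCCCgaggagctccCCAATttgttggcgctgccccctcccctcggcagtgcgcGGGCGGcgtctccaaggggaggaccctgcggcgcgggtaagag
The annotated starts were 21 bases apart, placed so that the first bases of both genes overlapped. The 250 bases before each start thus lay downstream of the other gene's start. The windows shared 78 bases, with 1 GC box in the shared stretch. The Col4a1 window held 1 CCAAT box and 1 GC box and had a GC content of 74.0%, and the Col4a2 window held 1 CCAAT box and 3 GC boxes with a GC content of 73.7%. None of these matches overlapped another, and neither window held TATAAA. Among all 32851 promoter windows of this length, 37.4% held a CCAAT box, 35.7% a GC box and 13.6% TATAAA, and the median GC content was 52.7%. A window was given for 35 of the 44 collagen genes. The X-linked pair Col4a5 and Col4a6 also lies head to head, with annotated starts 1343 bases apart and without such an overlap.

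The sorted cells carried a collagen repertoire made up almost wholly of basement membrane chains. In TPM, a share of the library corrected for gene length, Col4a1 had a level of 4535 ± 1448 and Col4a2 of 2569 ± 767 (SD, n = 11 mice), ranks 13 and 26 among the 28728 genes with reads. Their combined share of the summed collagen TPM was 88.5% ± 3.48 (SD, n = 11), and their reads were 0.717% to 1.53% of all counted reads in a mouse. Col18a1, which encodes the collagen whose C-terminal fragment is endostatin, followed at 686 ± 208 TPM (SD, n = 11), rank 171, a share of 9.07% ± 2.76 of the collagen TPM. All other collagen genes together held 2.43% of it.

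**Figure D1:**
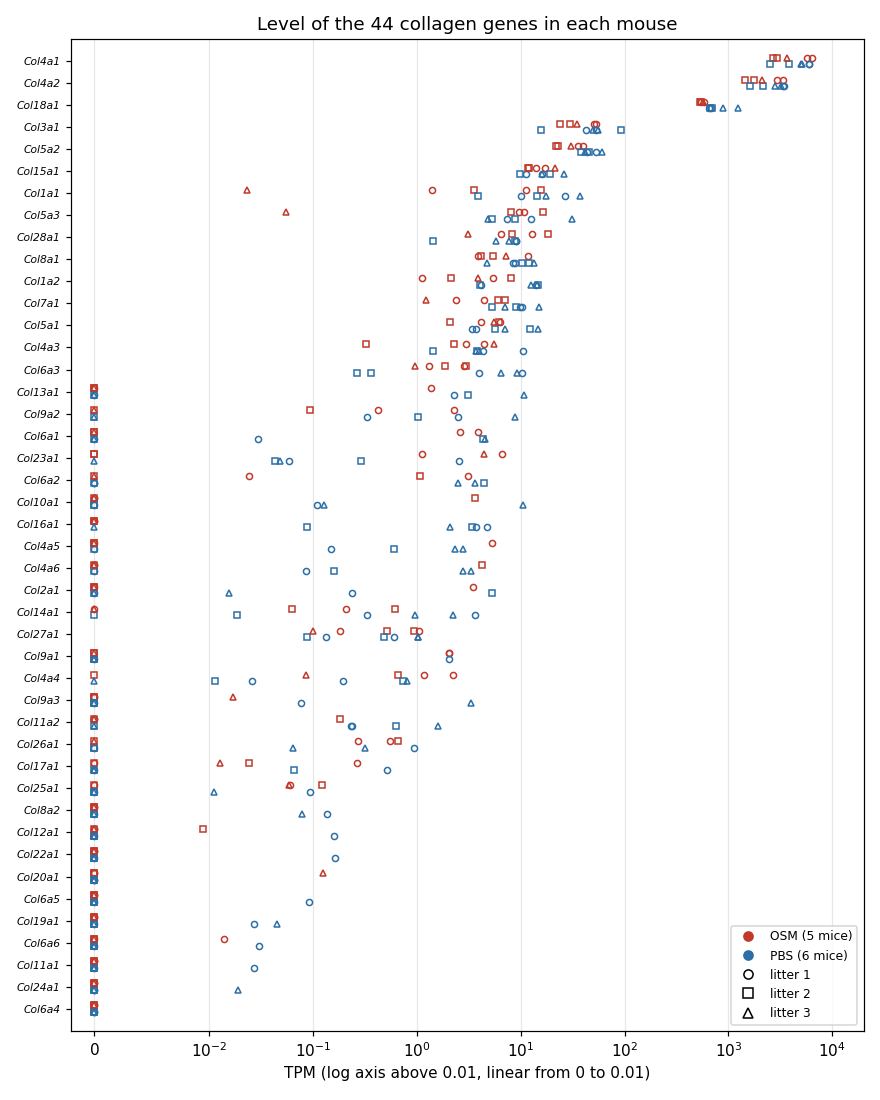
Level of each of the 44 collagen genes (rows, ordered by mean) in TPM on a log axis that turns linear from 0.01 to 0, with 1 symbol per mouse, red for OSM, blue for PBS, and a shape per litter. Col4a1 and Col4a2 lie between 1455 and 6422 TPM in the 11 mice, Col18a1 lies between 531 and 1235 TPM, and no other gene exceeds 92.0 TPM.

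Below these 3 genes the order was Col3a1 (45.6 ± 20.4 TPM), Col5a2 (39.2 ± 11.6), Col15a1 (15.9 ± 4.94), Col1a1 (12.8 ± 11.3) and Col5a3 (10.4 ± 8.03; SD, n = 11 each). Neighbours in this order overlapped in their ranges over mice, Col5a2 (22.0 to 60.0 TPM) and Col15a1 (9.91 to 26.3 TPM) included. Col3a1 encodes the type III chain of elastic tissues and Col5a2 a type V chain that sits inside type I fibers. Both outranked the type I genes Col1a1 and Col1a2 (7.64 ± 5.24 TPM) in their means. Of the 44 genes, 8 had a mean above 10 TPM and 23 above 1 TPM.

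Reads from at least 1 mouse were present for 43 collagen genes, with Col6a4 as the exception, and 16 had reads in all 11 mice. The other 27 genes had reads in some of the mice, and 9 of them in 1 or 2. A mouse had reads from 21 to 38 collagen genes, with the highest number in PBS-injected mouse 3 and at most 30 in any other mouse. Mouse 3 also had reads from the most genes of all kinds, 20898, against 16635 to 17697 in the other mice. Col13a1, a transmembrane collagen, illustrates the pattern: mice 1, 3, 7 and 10 had 49, 62, 112 and 388 reads, and the other 7 mice had 0. Libraries were made from picogram amounts of RNA, amplified without molecular identifiers, so such reads can descend from few molecules and whether a gene at 0 was absent or missed was not tested.

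All 6 type IV genes had reads, with a wide gap between the first pair and the other chains. Col4a3 was present in all 11 mice at 3.91 ± 2.61 TPM (SD, n = 11), Col4a4 in 9 mice, and Col4a5 and Col4a6 in 5 mice each. These 4 genes encode chains of the tissue-restricted networks of kidney, lung and other basement membranes. The type VI genes Col6a1 and Col6a2, whose chains assemble with that of Col6a3 into beaded filaments, had reads in 5 and 6 mice, whereas Col6a3 had reads in all 11 at 3.66 ± 3.47 TPM. Among short-chain collagens, Col8a1 (8.17 ± 3.38 TPM), a component of the subendothelial matrix, had reads in all mice and Col8a2 in 2. Col7a1, the anchoring fibril collagen, and Col28a1 had reads in all mice at 7.05 ± 3.91 and 8.23 ± 4.56 TPM (SD, n = 11). None of the 9 FACIT genes and none of the 4 transmembrane genes had reads in all mice.

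The sorted cells carried the endothelial markers, with transcripts of other cell types at lower summed levels. All 10 endothelial markers had reads in every mouse, with a summed TPM of 20413 to 26279, against 310 to 1644 for 12 mural cell markers, 42.6 to 85.8 for 10 fibroblast markers and 0.417 to 143 for 8 leukocyte markers. Larger sums came from 10 markers of Mueller cells and astrocytes (1388 to 1801 TPM, mostly Vim and Glul), 7 of red blood cells (347 to 3357 TPM) and 10 of rods and cones (186 to 5343 TPM, highest in OSM-injected mouse 5). Without mouse 5, 24 of 32 collagen genes tested had a lower fitted level after OSM, and their median log2 fold change was -0.52. Of the Mueller cell and astrocyte markers, Vim had a mean of 1290 TPM and Glul of 267, followed by Sox9 (20.5) and Rlbp1 (16.5). Gfap (0.80 TPM), Kcnj10 (0.32), Aqp4 (0.32) and Aldh1l1 (0.12) had reads in 4, 4, 2 and 3 mice. Slc1a3 had a mean of 1.69 TPM and Pax2 of 0.016. That sum thus describes Vim and Glul and is no measure of glial content. Of the fibroblast markers, Dpt and Twist2 were at 0 in all mice, Lum had reads in 1 mouse, and Fbln1 alone supplied a mean of 61.6 TPM. Total counts were 26697990 to 56033479 per mouse (median 32500202). Fewer cells of a type in a sample and less RNA per cell cannot be told apart in such bulk samples.

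The collagen genes were then compared between OSM-injected and PBS-injected mice with litter as a term. No collagen gene passed the test. The fitted differences pointed mostly toward lower levels after OSM, but by a median that differed widely between litters. Within litters, the median difference in mean log2 CPM of the genes tested was -0.044, -0.36 and -2.09 in litters 1, 2 and 3. The value in litter 3 rests on mouse 9 as its single OSM-injected mouse. Of the 44 genes, 32 passed the filter on low counts. None had an adjusted p under 0.05 (lowest 0.955, edgeR's quasi-likelihood test with Benjamini-Hochberg adjustment over 17050 genes), as none did among all genes (0%, lowest adjusted p 0.920). Of the 32, 26 had a lower and 6 a higher fitted level after OSM, and the median of their log2 fold changes was -0.52 (also with Col16a1 at the assumed floor described below), against 51.6% lower and a median of -0.014 among all genes tested. At an unadjusted p under 0.05 stood 6 of the 32 (18.8%), all lower after OSM, namely Col16a1, Col18a1, Col1a2, Col4a2, Col5a2 and Col7a1, against 4.96% of all genes tested (2.71% lower, 2.25% higher). Col16a1 had to differ to pass the filter, as described below, and without it the count was 5 of 31 (16.1%). Leaving out OSM-injected mouse 9 kept 3 of these (Col16a1, Col18a1 and Col5a2) and gave a median of -0.25, and leaving out PBS-injected mouse 7 gave a median of -0.26. Run on all genes with reads, edgeR called 2 of 43 collagen genes, Col16a1 and Col18a1, against 0.225% of all genes, and 9 had an unadjusted p under 0.05, against 5.81%. DESeq2 with litter called 2, Col16a1 and Col5a2, against 0.763%, with 11 at an unadjusted p under 0.05 against 6.07%. DESeq2 without litter called Col16a1 alone, against 0.482%, with 5 at an unadjusted p under 0.05 against 4.65%. Collagen genes share mice and cell sources, so these counts describe the list and are no test of it.

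**Figure D2:**
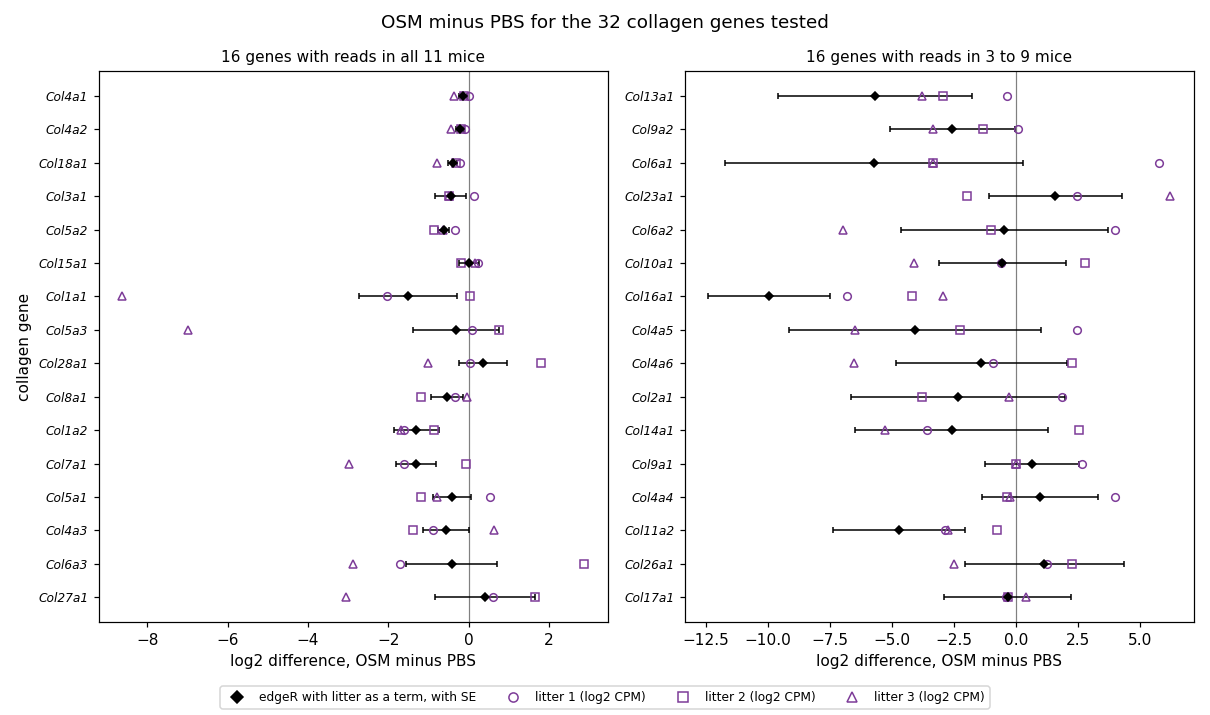
Log2 difference between OSM and PBS (OSM minus PBS) for the 32 collagen genes tested, with black diamonds and SE bars from edgeR with litter as a term and open symbols for the difference in mean log2 CPM within each litter. In the left panel, 14 of 16 genes with reads in all mice lie below 0, and in the right panel 12 of 16 genes with reads in 3 to 9 mice do, with SEs of 1.90 to 6.00.

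Precision followed detection. The SEs of the log2 fold change were 0.092 to 1.25 for the 16 tested genes with reads in all mice and 1.90 to 6.00 for the 16 with reads in 3 to 9 mice, so that a several-fold difference would not be detectable for the latter. The direction was checked within litters by the difference in mean log2 CPM (reads scaled to library size). A lower level after OSM in each of the 3 litters was found for 9 of the 32 genes (28.1%, against 12.8% of all genes tested), namely Col4a2, Col18a1, Col5a2, Col8a1, Col1a2, Col7a1, Col13a1, Col16a1 and Col11a2. Col16a1 had 0 reads in all OSM-injected mice, as described below. It could not come out higher in any litter, so its place in this count carries no information. Col13a1 and Col11a2 each had reads in a single OSM-injected mouse. They could not come out higher in the litters whose OSM-injected mice were all at 0, so their places in this count carry little information. A higher level in each litter was found for 0 of the 32, against 11.3% of all genes tested. Litter 3 contributed 1 OSM-injected mouse to each of these differences.

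Col18a1 (ENSMUSG00000001435, chromosome 10 of GRCm39, 76888012 to 77002390, minus strand) was the collagen gene whose groups did not overlap. Normalized read counts, scaled to the mean library size, were 28572, 30539, 30707, 29859 and 32349 in OSM-injected mice 1, 2, 5, 6 and 9, and had a lowest value of 33254, a median of 37555 and a highest value of 67036 in the 6 PBS-injected mice. Every OSM-injected mouse was thus below every PBS-injected mouse. Groups did not overlap in 0.405% of all genes tested, and in this direction in 0.223%. The log2 fold change was -0.40 ± 0.11 (SE), with an unadjusted p of 0.0052 and an adjusted p of 0.955. Over the alternatives, the adjusted p ranged from 0.047 in edgeR without a filter on low counts to 1, and was 0.106 in DESeq2 with litter. The highest PBS values belonged to mice 10 and 11 of litter 3, and the difference was -0.22, -0.31 and -0.79 in litters 1, 2 and 3. Of its 7063 exon bases, 896 (12.7%) overlap Slc19a1 on the opposite strand, and reads that touch exons of both are left out at the counting settings used.

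Col15a1 (ENSMUSG00000028339, chromosome 4, 47207582 to 47313179, plus strand), the other multiplexin gene, did not separate the groups. It had 728, 884, 656, 658 and 1199 normalized counts in OSM-injected mice 1, 2, 5, 6 and 9, and 533, 831 and 1402 as the lowest, median and highest values after PBS. The groups overlapped throughout. Its log2 fold change was -0.0025 ± 0.25 (SE), a value whose sign changed with several alternatives.

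Among the fibrillar genes, 8 of 9 tested had a fitted level that was lower after OSM (median log2 fold change -0.62), against 51.6% of all genes tested. Within litters their median difference was 0.091, -0.79 and -1.68 in litters 1, 2 and 3. Litter 1 thus did not share the direction, and litter 3 rests on OSM-injected mouse 9. Col5a2 (ENSMUSG00000026042, chromosome 1, 45412554 to 45542442, minus strand) had 3306, 2965, 2053, 1955 and 2717 normalized counts in OSM-injected mice 1, 2, 5, 6 and 9, and 3257, 3868 and 5018 as the lowest, median and highest values after PBS. The groups overlapped only through OSM-injected mouse 1 and PBS-injected mouse 8, and within each litter every OSM-injected mouse was below every PBS-injected mouse. The log2 fold change was -0.62 ± 0.14 (SE), with an unadjusted p of 0.00099 and an adjusted p of 0.955. DESeq2 with litter called it (adjusted p 0.0033), while DESeq2 without litter did not (adjusted p 0.051) and neither did edgeR without a filter (adjusted p 0.070).

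Col18a1 and Col5a2 kept an unadjusted p under 0.05 in 24 of 24 alternatives, which included leaving out each mouse and each litter in turn. Col7a1 did so in 19, Col1a2 in 14 and Col4a2 in 13 of the 24.

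The type I genes were lower on average after OSM with a wide spread. Col1a1 (ENSMUSG00000001506, chromosome 11, 94827050 to 94843868, plus strand) had 546, 68.2, 828, 187 and 1.22 normalized counts in OSM-injected mice 1, 2, 5, 6 and 9, and 197, 815 and 1826 as the lowest, median and highest values after PBS. Col1a2 (ENSMUSG00000029661, chromosome 6, 4504814 to 4541555, plus strand) had 508, 106, 807, 215 and 398 normalized counts in the same OSM-injected mice, and 381, 1260 and 1495 after PBS. The groups overlapped for both genes. Col1a1 had a log2 fold change of -1.52 ± 1.23 (SE) with an adjusted p of 1, and Col1a2 of -1.30 ± 0.56 with an adjusted p of 0.955. Mouse 9 had 2 reads of Col1a1 but 653 of Col1a2, and without it the fold change of Col1a1 was -0.73. Of the 12650 exon bases of Col1a2, 1308 overlap Gm66266 on the opposite strand.

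Col3a1 (ENSMUSG00000026043, chromosome 1, 45350698 to 45395840, plus strand) had 4087, 3880, 2474, 1935 and 2906 normalized counts in OSM-injected mice 1, 2, 5, 6 and 9, and 1240, 3988 and 7565 as the lowest, median and highest values after PBS. The PBS values enclosed all OSM values, and both extremes, mice 8 and 7, came from litter 2. It had a log2 fold change of -0.45 ± 0.38 (SE) with an adjusted p of 1, which became 0.14 without PBS-injected mouse 7. Col5a3 (ENSMUSG00000004098, chromosome 9, 20681337 to 20726418, minus strand), a type V chain, had 558, 487, 906, 437 and 3.05 normalized counts after OSM, and 256, 434 and 1593 after PBS. Its fold change of -0.32 ± 1.07 (log2, SE; adjusted p 1) became 0.42 without mouse 9, which had 5 reads.

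Col7a1 (ENSMUSG00000025650, chromosome 9, 108782647 to 108813943, plus strand) had 344, 182, 577, 497 and 100.5 normalized counts in OSM-injected mice 1, 2, 5, 6 and 9, and 425, 737 and 1160 as the lowest, median and highest values after PBS. The groups overlapped through mice 5 and 6 of litter 2, where the difference was -0.063, against -1.61 in litter 1 and -2.97 in litter 3. The log2 fold change was -1.31 ± 0.50 (SE), with an adjusted p of 0.955.

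Col16a1 (ENSMUSG00000040690, chromosome 4, 129941154 to 129993076, plus strand), a FACIT collagen found along small fibrils, was counted in PBS-injected mice alone. It had 0 reads in all 5 OSM-injected mice, and 257, 196, 196, 4.89, 116 and 0 normalized counts in PBS-injected mice 3, 4, 7, 8, 10 and 11. Mouse 11 was thus at 0 like the OSM mice, and mouse 8 had 5 reads. With every OSM library set to an assumed floor of 3 reads (2.96 normalized counts), the PBS mean was 43.5-fold that floor. This is no lower limit for the difference, since whether the gene was absent or missed at 0 was not tested. The gene passed the filter on low counts through the PBS mice only and therefore had to differ. Its adjusted p was 0.955 in edgeR's quasi-likelihood test, 0.00033 without the filter and 0.00020 in DESeq2 with litter, and it ranged from 3.2e-05 to 1 over the alternatives.

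**Figure D3:**
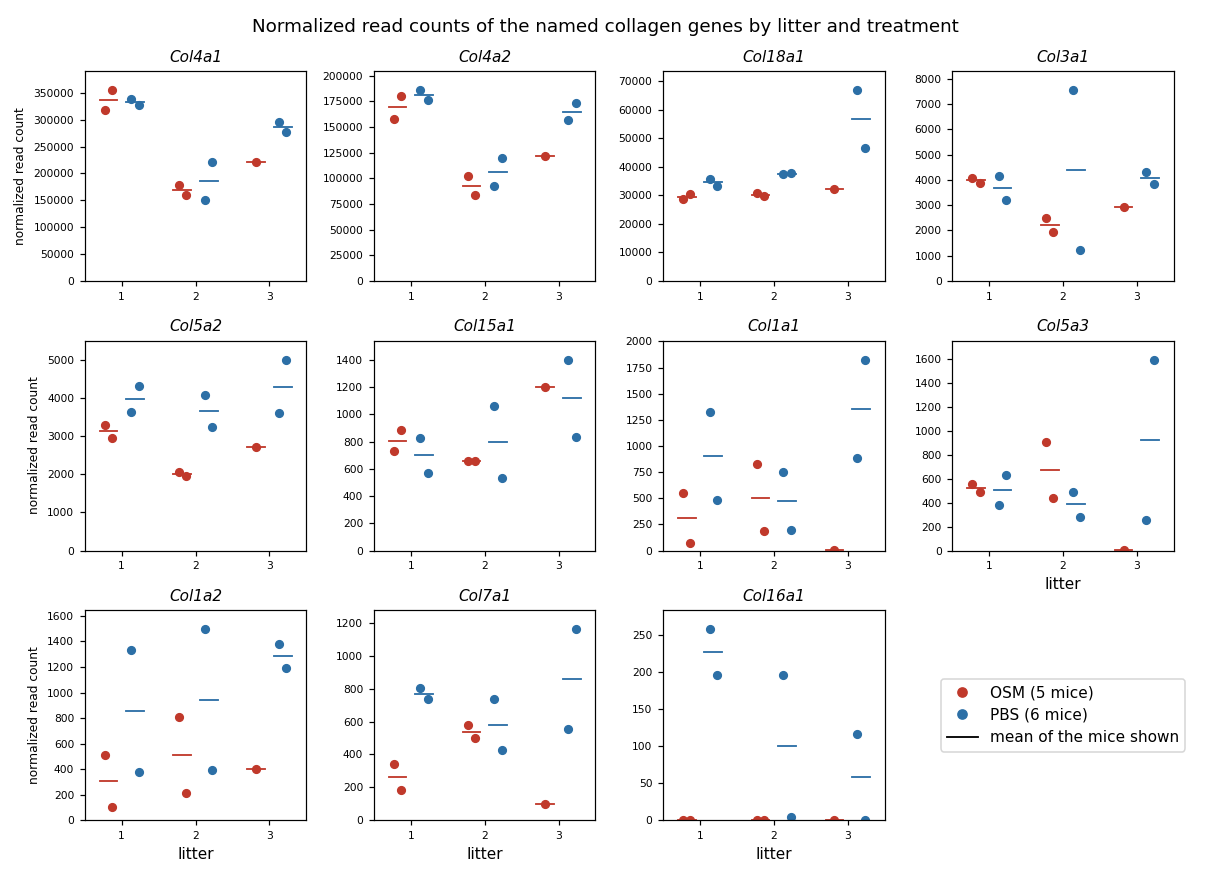
Normalized read counts (y axes, from 0) of 11 collagen genes by litter (x axes), with 1 point per mouse, red for OSM and blue for PBS, and lines at the mean of the mice shown. Col18a1 separates OSM from PBS in all 3 litters, Col4a1 and Col4a2 are lowest in litter 2, and Col16a1 is at 0 in all 5 OSM-injected mice.

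The dominant pair differed more between litters than between treatments. Col4a1 (ENSMUSG00000031502, chromosome 8 of GRCm39, 11248423 to 11362826, minus strand) had 317045, 355443, 177493, 159649 and 220615 normalized counts in OSM-injected mice 1, 2, 5, 6 and 9, and 150650, 286343 and 337649 as the lowest, median and highest values after PBS. Col4a2 (ENSMUSG00000031503, chromosome 8, 11362471 to 11499287, plus strand) had 158112, 180131, 101896, 83178 and 121405 after OSM, and 92526, 164827 and 186092 after PBS. The ranges of both treatments overlapped widely, and each treatment held mice of every litter. The log2 fold change was -0.14 ± 0.10 (SE) for Col4a1 and -0.22 ± 0.092 for Col4a2, with adjusted p of 1 and 0.955. The genes share 311 exon bases on opposite strands, 4.17% of those of Col4a1, and reads that touch both are left out.

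By litter, Col4a1 had 334456 ± 16326 normalized counts in litter 1 and 177195 ± 31253 in litter 2 (SD, n = 4 mice each), and 264434 ± 39178 in litter 3 (SD, n = 3). The values did not overlap between litters 1 and 2. Relative to litter 1, the fitted log2 difference was -0.92 in litter 2 and -0.37 in litter 3 for Col4a1, and -0.82 and -0.27 for Col4a2. The test of litter gave an adjusted p of 0.054 for both genes (edgeR's quasi-likelihood F test over 17050 genes), just above the threshold that 3 genes passed among all tested (0.0176%). Of the 32 collagen genes, 4 (12.5%) had an unadjusted litter p under 0.05, against 10.3% of all genes tested. DESeq2's likelihood ratio test called Col4a1, Col4a2 and Col18a1 for litter, 3 of 29 collagen genes, against 7.11% of all genes, and edgeR without a filter called these and Col9a1, 4 of 43, against 2.16%. Litter, OIR run and any difference in preparation between runs cannot be told apart.

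Across the 11 mice, Col4a1 and Col4a2 kept a nearly fixed proportion. Their log2 CPM values had a Pearson r of 0.974 (permutation adjusted p 0.00021 over the 7 pairs of partner genes tested) and a Spearman rho of 0.946 (permutation adjusted p 0.00028). Without mice 7 and 6, the farthest from the median of Col4a1, r was 0.960. After removal of the litter and treatment means it was 0.872, and within a litter the 3 or 4 mice are too few for a value. Per length, the level of Col4a1 was 1.76 ± 0.12 times that of Col4a2 (SD, n = 11), with a range of 1.54 to 1.93, whereas the normalized counts spanned 2.36-fold for Col4a1 and 2.24-fold for Col4a2.

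**Figure D4:**
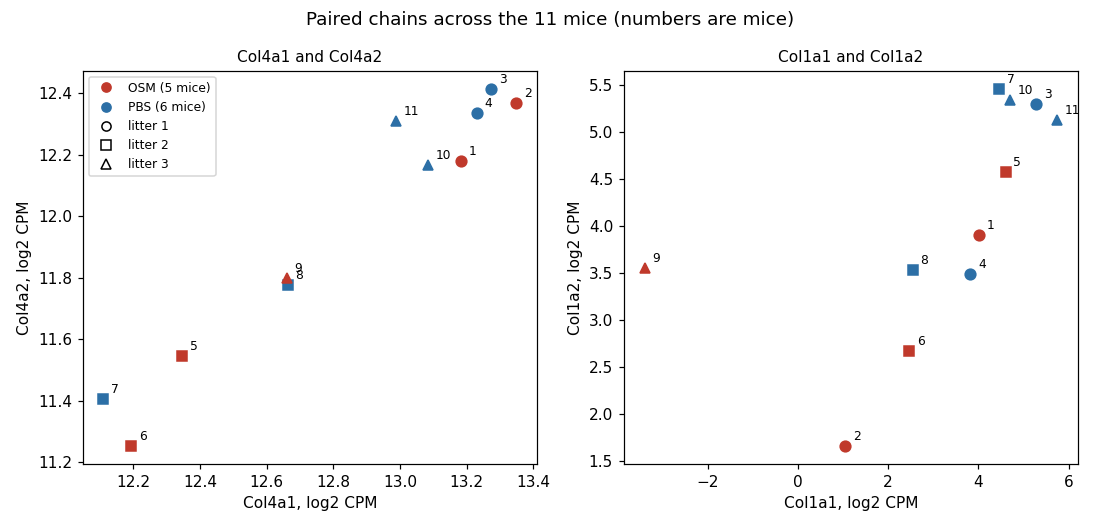
Log2 CPM of Col4a1 against Col4a2 (left) and Col1a1 against Col1a2 (right), 1 numbered point per mouse, red for OSM and blue for PBS, with a shape per litter. The Col4a1 and Col4a2 points follow a line with r of 0.974, and in the right panel mouse 9 stands apart with 2 reads of Col1a1.

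The type I pair was less closely tied. The ratio of Col1a1 to Col1a2 in normalized counts ran from 0.500 to 1.54 in 10 mice and was 0.0031 in mouse 9. Col1a1 and Col1a2 had a Pearson r of 0.601 (permutation adjusted p 0.140) and a Spearman rho of 0.773 (permutation adjusted p 0.0253), and r was 0.862 without mice 9 and 2, the farthest from the median of Col1a1. After removal of litter and treatment means, r was 0.589 for this pair. Col3a1 and Col5a2, neighbours on chromosome 1, had an r of 0.515 (permutation adjusted p 0.171) and a rho of 0.564 (0.136), with 0.558 without mice 8 and 6. Col5a1 and Col5a2, whose chains form 1 trimer, had an r of 0.495 (permutation adjusted p 0.171) and a rho of 0.309 (0.503), which became -0.108 without mice 6 and 11. The relation over all mice thus rests on those mice. After removal of litter and treatment means, r was 0.726 for this pair. No p-value is given for it, because a permutation of such residuals does not account for the means removed. In the less abundant pairs, mice split into those with and without reads, and no r is given. Col4a5 and Col4a6 were found together in 3 mice, Col4a5 alone in 2, Col4a6 alone in 2 and neither in 4. Col6a1 and Col6a2 were found together in 4 mice, alone in 1 and 2, and neither in 4. Col4a4 had reads in 9 of the 11 mice that had Col4a3.

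Whether the OSM difference varied between litters was tested as an interaction. No collagen gene passed (0 of 32, as 0% of all genes), and 7 of 32 (21.9%) had an unadjusted interaction p under 0.05, against 6.42% of all genes tested. These were Col1a1, Col5a3, Col7a1, Col6a3, Col6a1, Col23a1 and Col14a1. For Col6a3, the within-litter difference was -1.72, 2.88 and -2.89 in litters 1, 2 and 3, with 253 and 117 normalized counts after OSM against 933 and 350 after PBS in litter 1, and 286 and 179 against 34.5 and 24.5 in litter 2. Litters 1 and 2 thus ordered the treatments in opposite ways without overlap. DESeq2's likelihood ratio test called Col1a1, Col5a3 and Col6a3, 3 of 31 collagen genes, against 4.64% of all genes, and edgeR without a filter called 6 of 43, against 1.05%. In litter 3, every such value rests on mouse 9 as the single OSM sample.

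Markers of mural cells, which make fibrillar and basement membrane collagens, had lower fitted levels after OSM as well. This held for all 12 mural markers (median log2 fold change -0.74), against 51.6% lower among all genes tested. Within litters their median difference was -0.96, 0.15 and -1.33 in litters 1, 2 and 3, so litter 2 did not share the direction. Lower in each of the 3 litters were 4 of the 12, against 12.8% of all genes tested. Of the 12, 0 had an adjusted p under 0.05 in edgeR with the filter or in DESeq2 with litter. An unadjusted p under 0.05 in edgeR was found for 2 (Pdgfrb and Higd1b), against 4.96% of all genes tested. EdgeR without the filter called 4, namely Acta2, Rgs5, Higd1b and Cspg4, all lower, against 0.225% of all genes. The summed TPM of the mural markers was 391 to 799 after OSM and 310 to 1644 after PBS. Among PBS-injected mice, mice 7 and 11 had the highest sums of mural markers (1343 and 1644 TPM) and of fibrillar collagens (193 and 206 TPM), while mouse 8 had the lowest of both (310 and 72.7 TPM). The OSM-injected mice did not follow this order: mouse 6 had the highest mural sum (799 TPM) and the lowest fibrillar sum (62.0 TPM), and mice 1 and 2 had the highest fibrillar sums (124 and 110 TPM) at mural sums of 432 and 391 TPM. With the log2 of the mural sum as a further term, a fit chosen after the data were seen, 16 collagen genes were lower and 16 higher, and the median log2 fold change was -0.028. The fold change of Col18a1 was -0.40 and that of Col5a2 -0.56 in this fit, close to the values without the term, and both kept an unadjusted p under 0.05, as did Col4a2 (-0.26) and Col16a1. For Col1a2 it was -0.78, for Col7a1 -0.78 and for Col1a1 -0.74, smaller than without the term, and for Col3a1 it was 0.20. No gene was called with this term either. The mural sum comes from the same libraries, after treatment, and itself differed between the treatment groups. Its part in the collagen differences was not tested and cannot be told apart from that of treatment. Of the 10 fibroblast markers, 3 of 5 tested were lower, with sums of 42.6 to 70.9 TPM after OSM and 60.2 to 85.8 after PBS.

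Red blood cell markers differed in the opposite direction. All 5 tested (Hba-a1, Hba-a2, Hbb-bs, Hbb-bt and Alas2) had a higher fitted level after OSM, in each of the 3 litters and with an unadjusted p under 0.05 in edgeR, and the median difference was 1.12 on the log2 scale. Among all genes tested, 11.3% were higher in each of the 3 litters and 2.25% were higher with an unadjusted p under 0.05. None of the 5 had an adjusted p under 0.05 in that fit. EdgeR without the filter called all 5, against 0.225% of all genes. DESeq2 with litter called 3 (Hbb-bs, Hbb-bt and Alas2), against 0.763%. The summed TPM was 1210 to 3357 after OSM and 347 to 1869 after PBS, and its part in the collagen differences was not tested.

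**Figure D5:**
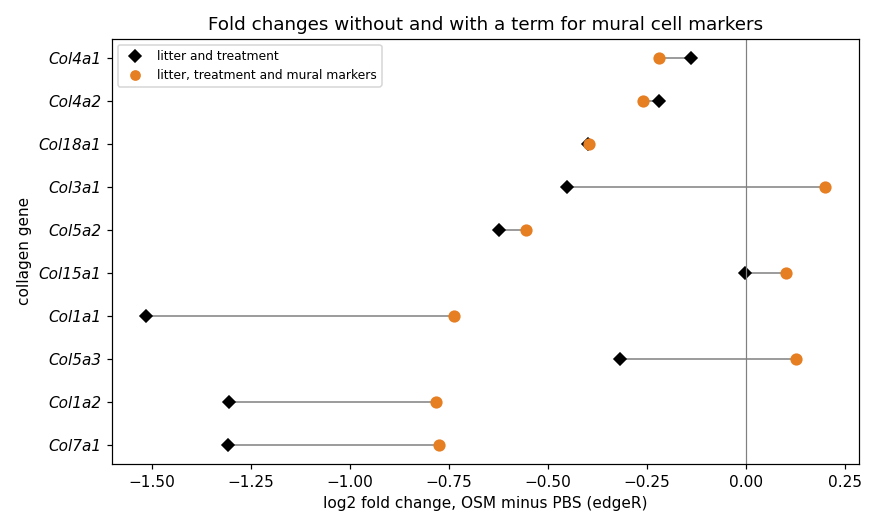
Log2 fold change (OSM minus PBS, edgeR) of 10 collagen genes without (black diamonds) and with (orange circles) a term for the summed level of 12 mural cell markers. Col18a1 stays at -0.40 and Col5a2 goes from -0.62 to -0.56, while Col1a2 goes from -1.30 to -0.78 and Col3a1 from -0.45 to 0.20. The mural sum comes from the same libraries, and its part in these differences was not tested.

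Among the genes that fold, modify, cross-link and bind collagen, edgeR with the filter on low counts called none, and neither did DESeq2 with litter. EdgeR without the filter called Loxl3 of the cross-linking list (adjusted p 3.2e-05), against 0.225% of all genes. In edgeR with the filter, Loxl3 had a log2 fold change of -3.06 and an unadjusted p of 0.085. It had reads in 9 mice, and its within-litter difference was -2.44, 0.41 and -8.44 in litters 1, 2 and 3. The value in litter 3 rests on OSM-injected mouse 9. All 22 genes of chain folding and hydroxylation were tested, and 10 were higher and 12 lower after OSM (median log2 fold change -0.030), 0 with an unadjusted p under 0.05. The highest levels were those of P4hb (1597 ± 134 TPM), a subunit of prolyl 4-hydroxylase, Serpinh1 (1549 ± 120 TPM), the collagen chaperone HSP47, and Fkbp10 (650 ± 78.6 TPM; SD, n = 11 each), a collagen-binding prolyl isomerase. Their log2 fold changes were -0.038 ± 0.072, 0.047 ± 0.070 and -0.022 ± 0.096 (SE), each with an adjusted p of 1.

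Of 19 genes for propeptide cleavage and cross-linking, 12 were tested, 6 higher and 6 lower, 0 with an unadjusted p under 0.05. Sparc, a collagen-binding matricellular protein, stood at 15984 ± 766 TPM (SD, n = 11), above Col4a1 in its mean, with a log2 fold change of 0.051 ± 0.049 (SE). Bgn (209 ± 36.1 TPM), a small proteoglycan, and Pxdn (181 ± 40.5 TPM), the peroxidase that cross-links type IV collagen, had values of 0.11 ± 0.15 and -0.082 ± 0.088 (SE). Lox, the lysyl oxidase that cross-links fibrillar collagens, had reads in 3 mice. Of 10 collagen receptors, 7 were tested, 2 higher and 5 lower, 0 with an unadjusted p under 0.05. Itgb1 (1405 ± 278 TPM) and Itga1 (69.6 ± 15.4 TPM), which together form the integrin that binds type IV collagen, and the tyrosine kinase receptor Ddr2 (10.3 ± 4.93 TPM; SD, n = 11 each) led the list, with log2 fold changes of -0.055 ± 0.10, -0.27 ± 0.14 and -0.55 ± 0.43 (SE).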

How the data were processed

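RNA from sorted retinal endothelial cells of 11 mice was measured, 1 sample per mouse. After poly(A)-primed cDNA synthesis and PCR, the authors sequenced single reads, mapped them to GRCm39 with STAR, assigned them to GENCODE genes with featureCounts (standard settings, strand not used) and deposited raw read counts. Mouse identity was taken from the sample labels; the column headers in the files of mice 10 and 11 carry the numbers of mice 11 and 12, and all of these are PBS.

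Here the counts were analysed with edgeR 4.0.16 in R 4.3.3 (TMM, filterByExpr with the design matrix and a count minimum of 10, robust quasi-likelihood fit, litter and treatment as terms, Benjamini-Hochberg adjustment over all 17050 genes tested, threshold 0.05). A call means an adjusted p under 0.05. SEs were derived from the fold change and its F statistic. TPM used the union of each gene's exons in GENCODE vM39 (genes without an entry there were left out of TPM), log2 CPM a prior count of 2, and correlations 100000 two-sided permutations. DESeq2 (version 1.42.0 here; the study also used DESeq2) was an alternative, as were other normalizations, filters and left-out mice or litters. Total counts, 26697990 to 56033479, are reads without molecular identifiers, so errors are the spread over mice, which covers more than counting. The scripts were tested on simulated data. The collagen genes and the other lists were chosen with earlier results of these data known. Values by mouse were given for the 8 collagen genes with the highest mean TPM, 7 chains known from vessel walls, and those with an unadjusted p under 0.05 or a call in edgeR without a filter or in DESeq2; for other lists, the 3 highest genes.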

Additional observations from a re-analysis of the deposited data

Results flagged for a closer look

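Each of the 11 collagen genes given by mouse was searched for a value far from the others of its treatment group on the log2(normalized count + 1) scale, in 21 groups with a spread, of which chance flags about 1 in 20. A single value stood apart. OSM-injected mouse 9 had 3.05 normalized counts of Col5a3 (5 reads), whereas the other OSM-injected mice had 437 to 906. The gap made up 0.865 of the range of the group.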

How the results depend on the processing

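The count of all genes called went from 0 to 65 without a filter, 168 in DESeq2 with litter and 88 in DESeq2 without litter, and that of collagen genes called from 0 to 2 (Col16a1 and Col18a1), 2 (Col16a1 and Col5a2) and 1 (Col16a1). Collagen genes with an unadjusted p under 0.05 numbered 11 in DESeq2 with litter, 3 without litter 3, and 3 to 7 when each mouse was left out, with 3 without OSM-injected mouse 9. The collagen median log2 fold change was -0.70 to -0.25 with a mouse left out, lowest in size without mouse 9 (-0.25) and mouse 7 (-0.26), and 20 to 29 genes were then lower after OSM. Litter was called for 4 collagen genes without a filter (2.16% of all genes) and 3 in DESeq2's likelihood ratio test (7.11%), and the interaction for 6 (1.05%) and 3 (4.64%). Signs changed for Col15a1 (0.028 with libraries thinned to the smallest, 0.16 without litter 2, 0.099 with the mural term, -0.10 to 0.20 with a mouse left out), Col3a1 (0.20 with the mural term, -0.63 to 0.14 with a mouse left out) and Col5a3 (0.13 with the mural term, 0.42 without litter 3, -0.74 to 0.42 with a mouse left out). With the longest transcript as length, Col4a2 held 30.8% of the collagen TPM instead of 32.1%. The r of Col1a1 and Col1a2 was 0.862 without the 2 mice farthest from the median and 0.560 to 0.925 with a mouse left out, highest without mouse 9. The r of Col5a1 and Col5a2 was 0.726 after removal of litter and treatment means and -0.108 without 2 mice. The cause of these changes was not tested. The other 389 of 426 values kept their direction and their side of the threshold. No paired analysis was possible because the mouse numbers are not shared between treatments. The 28 collagen genes without reads in all mice have SEs too wide for a firm direction or were not tested, and total counts did not order the number of collagen genes with reads, which was 38 in mouse 3 (26697990 reads) and 22 in mouse 9 (56033479).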
